A study of Mus musculus with 17 samples.

Results

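The data described here are RNA polymerase II maps of wild-type (WT) mouse bone marrow-derived macrophages that received R837 for 6 h or no treatment. They comprise 4 of the 17 samples of the series, taken by their titles as 2 libraries of untreated WT cells and 2 libraries of WT cells at 6 h of R837. Of the 17 samples, 16 are immunoprecipitated libraries with a deposited list of peak summits, and the input DNA sample was not analysed here. The other libraries are WT cells at 2 h and 4 h of R837 and cells labelled N4bp1 KO under the same 4 conditions, 2 libraries each. The WT genotype is given with no strain, age or sex, and untreated cells are labelled as having had no treatment. Whether the 2 replicates of a group come from different mice or cultures is not given in the labels, so each p-value speaks of the spread from library to library, and that spread may be a technical one.

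R837, or imiquimod, is a small agonist of TLR7, an endosomal receptor that detects single-stranded RNA. TLR7 signals through the adaptor MyD88 to the IkB kinases and MAP kinases. These kinases release NF-kB and AP-1 to the promoters of cytokine and chemokine genes. Interferon-stimulated genes respond later, to cytokines that the cells secrete. RNA polymerase II transcribes these genes, and it often pauses just after the start site before it enters the gene body, so a map of polymerase shows both where genes are poised and where they are being read.

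Each library was described by a list of polymerase summits, the single-base positions of highest signal in a peak, ordered by the authors' own score. A gene was given the rank of its best summit, counted from 1 for the highest score, within the gene and 1 kb on each side. Lists were shortened to the 8394 best summits, the length of the shortest list, which was replicate 2 at 6 h. The rank score was log2 of the list length plus 1 divided by the rank, so that it ran from 0 for a gene with no summit in the shortened list, written here as none, to 13.04 for rank 1, and a change is the mean rank score at 6 h minus that of untreated cells with its standard error (SE). A rank is a place among the genes of a library and not an amount of polymerase, and in these bulk libraries fewer cells with polymerase at a gene cannot be told apart from less polymerase per cell.

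Before any gene was compared, the 4 lists differed as wholes. The deposited lists held 24720 and 20607 summits in untreated replicates 1 and 2 and 17007 and 8394 at 6 h. Within lists of equal length the untreated libraries had a summit at 6566 and 6678 of 21887 protein-coding genes and the treated libraries at 4386 and 2693. Codes in the deposited peak names place the untreated and the 6 h libraries in separate series, so that any batch between those series and 6 h of R837 cannot be told apart. Of the summits of untreated replicate 1, 87.2% had a score value that also occurred in replicate 2 at 6 h, against 41.3% for its own replicate, and 96.0% of the summits of replicate 2 at 6 h had one that occurred in untreated replicate 1. The part this played in the results was not tested beyond leaving out each library in turn.

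The macrophage label was checked against 10 markers. Spi1, which encodes the myeloid transcription factor PU.1, had ranks 43 and 113 in untreated and 29 and 26 in treated libraries, and Cd68, an endosomal glycoprotein, had ranks 50 and 155 and then 53 and 108, through summits that also count for its neighbour Eif4a1. Neither passed the test, with changes of 1.34 ± 0.60 and 0.22 ± 0.95. Markers of B cells, mast cells and basophils, and erythroid cells had no tested gene and no summit in the 4 shortened lists. Of 17 matched markers of T and NK cells, 2 could be tested and neither was called, and the same held for 5 of 10 dendritic cell markers and 1 of 13 markers of fibroblasts and stroma. Of 14 neutrophil markers, 2 were tested and only Csf3r, the receptor of granulocyte colony-stimulating factor, was called. Csf3r had no summit in untreated libraries and ranks 1028 and 566 at 6 h, a change of 3.46 ± 0.68 with adjusted p = 0.0045, while the summed rank score of the neutrophil list was 0 in both untreated and 3.03 and 3.89 in the treated libraries, all of it from that gene.

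Of 8475 genes tested, 263 had a higher and 1192 a lower rank score at 6 h, which is 3.10% and 14.1% of the genes tested. The median change over all genes tested was −0.41, so a fall has to be read against a background that itself lies below 0. The treated lists also covered fewer genes, and the cause of the shift was not tested. Both treated libraries lay above both untreated libraries at 8.59% of the genes tested and below both at 41.4%. When each gene took only 1 rank and all lists were given the same 2693 genes, the median change was 0.00, and 277 genes were higher and 325 lower, 5.29% and 6.21% of 5235 genes. In that ordering calls were made again for 207 of the 263 rises and for 321 of the 1192 falls, while 381 falls could not be tested. Without R837 replicate 1 the falls numbered 680 and without R837 replicate 2 they numbered 445, whereas leaving out untreated replicate 1 or 2 gave 1354 and 1149. The rises numbered between 177 and 211 when 1 of the 4 libraries was left out. A fit of the 4 libraries alone called no gene in limma, with 2109 genes at an unadjusted p under 0.05 against 2642 in the fit of all 16 libraries.

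**Figure D1:**
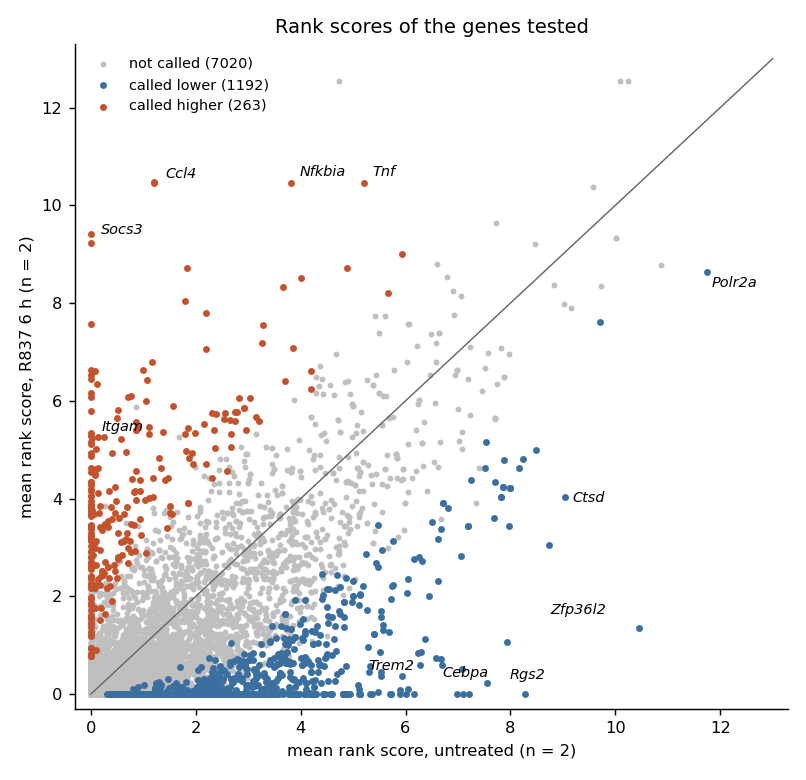
Mean rank score of each tested gene in the 2 untreated libraries (x axis) and the 2 libraries at 6 h of R837 (y axis), with genes called higher in red, called lower in blue and not called in grey, and the line of equal scores. Called rises (263) lie along the left side, many of them at an untreated score of 0, and called falls (1192) along the bottom.

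The 15 largest rises were led by genes of inflammatory feedback and chemotaxis. Socs3 (gene ID 12702, chr11:117966079-117970336), which encodes an inhibitor of cytokine receptor signalling, was absent from both untreated lists, deposited ones included, and ranks 8 and 19 at 6 h. Its change was 9.41 ± 0.64 with adjusted p = 7.77e-06, and its best summits at 6 h lay 1354 and 3486 bases after the start, in the gene body and at the 3′ end. Socs3 was not called in the gene without its 1 kb flanks, near gene ends alone or near annotated starts. Nfkbia (gene ID 18035, chr12:55489409-55492647) encodes IkB-alpha, the inhibitor that holds NF-kB in the cytoplasm and is itself an NF-kB target. It moved from ranks 692 and 507 to ranks 9 and 4, a change of 6.63 ± 0.85 with adjusted p = 0.000376. In untreated cells its best summit lay 108 and 126 bases after the start, and at 6 h it lay 4033 and 4217 bases after the start, beyond the annotated end. Both genes were chosen for treated and untreated libraries that do not overlap, so the lack of overlap adds no support. Their best summits at 6 h lay away from the start site, and these positions do not show whether polymerase at the promoter changed.

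Ccl3 and Ccl4, neighbouring genes for the macrophage inflammatory proteins that attract leukocytes, both ranked 2552 and 5139 in untreated cells by the same summit. At 6 h Ccl3 (chr11:83647843-83649378) ranked 7 and 5 and Ccl4 ranked 6 and 6. The changes were 9.26 ± 0.82 and 9.24 ± 0.81, and since the annotated gene regions overlap they are not 2 independent results, although the best summits of Ccl4 at 6 h lay apart from those of Ccl3. Neither gene was called by number of summits, and Ccl3 was not called without its 1 kb flanks or near annotated starts. Saa3, an acute-phase protein gene, had no summit in untreated lists and rank 14 in both treated lists, yet in KO cells at 6 h its ranks were 1 and 2959, a wide spread that enters the pooled error. Its change of 9.23 ± 2.37 passed with adjusted p = 0.0176 and did not pass when any one of the 4 libraries was left out, with the same change and adjusted p between 0.0774 and 0.107, or with 1 rank per gene.

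Several of the other largest rises had many summits in the gene at 6 h. Pde4b, a phosphodiesterase that degrades cyclic AMP, was outside the best 8394 in untreated cells (ranks 15403 and 10405 in the deposited lists) and had ranks 54 and 36 at 6 h, with 12 and 15 summits in the gene. Lyn, a SRC-family kinase of myeloid cells, moved from ranks 9800 and 12493 of the deposited lists to 115 and 81 and carried 45 and 76 summits at 6 h. Ehd1, which works in endosomal recycling, was outside both shortened lists of untreated cells and had 12 and 20 summits at 6 h, with ranks 76 and 109. Rac2, a small GTPase of the phagocyte oxidase, had none in untreated lists and ranks 59 and 122 with 6 and 10 summits. These 4 genes changed by 7.57 ± 0.76, 6.44 ± 0.60, 6.53 ± 0.62 and 6.63 ± 0.66 in the order given, and all kept their call without any one library. Rassf4, Lrrc25 and the copper transporter gene Slc31a2 rose by 6.23 ± 0.58, 6.24 ± 0.60 and 6.08 ± 0.71. Iffo1 and Astl are among the 15 by summits they share with Gapdh and Dusp2, and Iffo1 had 2 and 3 summits before and 2 and 2 at 6 h.

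**Figure D2:**
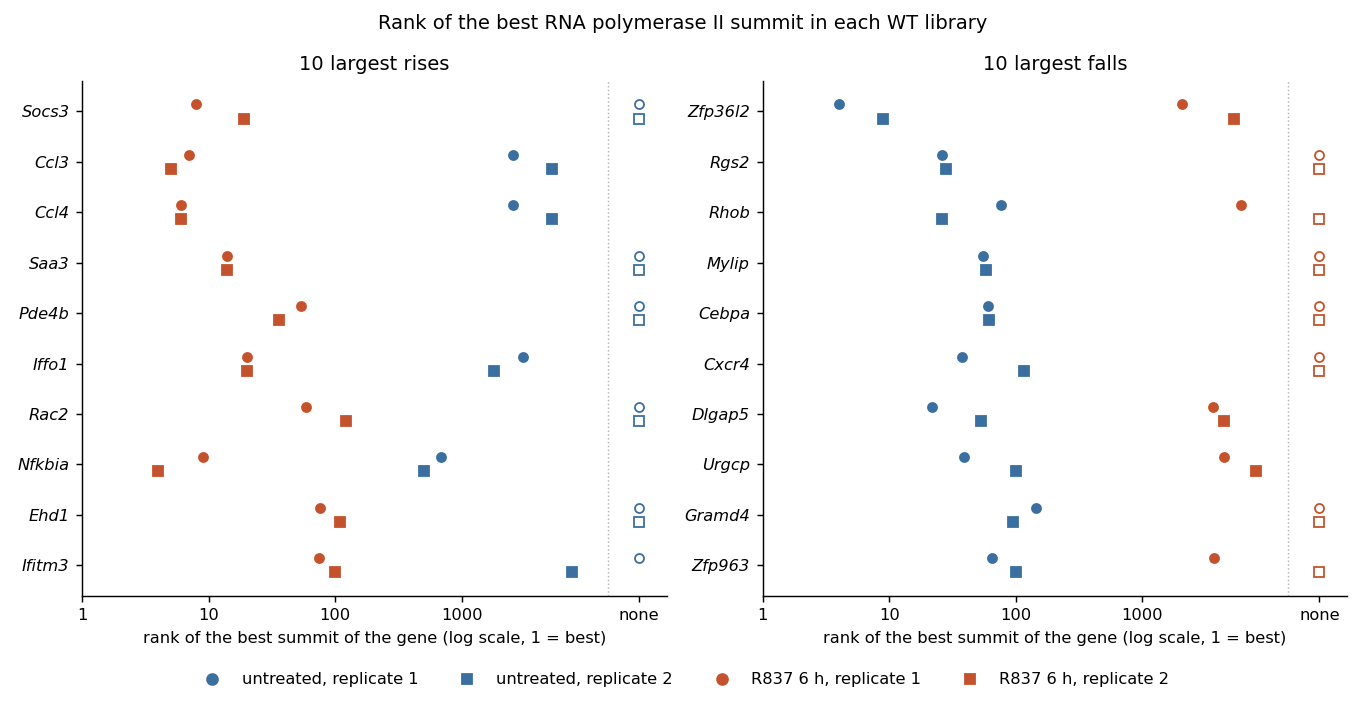
Rank of the best summit of the 10 genes with the largest rise (left) and the largest fall (right) in each of the 4 WT libraries, on a log axis where 1 is best and open symbols mark no summit among the best 8394. The genes were chosen for libraries that do not overlap between the groups, for example Nfkbia at ranks 692 and 507 before and 9 and 4 at 6 h, and Cebpa at ranks 61 and 62 before and none at 6 h.

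Chemokine genes rose in 5 of 14 members tested and none fell, with a median change of 1.13 against −0.41 over all genes. Besides Ccl3 and Ccl4 these were the monocyte attractants Ccl7 and Ccl2 and the neutrophil attractant Cxcl2. Ccl7 had no summit in untreated lists and ranks 475 and 173 at 6 h, a change of 4.87 ± 0.59. Ccl2 went from none to ranks 878 and 197 (4.34 ± 0.75) and Cxcl2 from none to 710 and 357 (4.06 ± 0.78). All 3 were absent from both shortened untreated lists, as were 95 of the 263 rises, and all 263 rises had a summit in both treated lists. Cxcl2 was not called in the gene without its 1 kb flanks or near annotated starts. The count of 5 was 5 or 6 when 1 of the 4 libraries was left out. The members that had stronger places earlier are given with the other times below, among them Cxcl1, with ranks 5207 and none at 6 h, and Ccl5, with ranks 4109 and 3996, neither of which passed the test at 6 h, with changes of 0.34 and 1.05.

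Cytokine genes rose in 5 of 17 members tested and none fell, with a median change of 0.37. Tnf, the main early inflammatory cytokine of macrophages, already ranked 130 and 394 in untreated cells and ranked 4 and 9 at 6 h, a change of 5.24 ± 0.74 with adjusted p = 0.000687. Il10, which encodes the principal anti-inflammatory cytokine of macrophages, had no summit in untreated lists and ranks 196 and 297 at 6 h (5.12 ± 0.70). Tnf thus moved within the upper part of the list, while Il10 entered it. The T cell costimulator Tnfsf9 moved from none to ranks 563 and 397 (4.15 ± 0.64) and the interleukin-1 receptor antagonist Il1rn from none to 611 and 416 (4.06 ± 0.73). Il1b, from none to 1417 and 578, changed by 3.21 ± 0.85, and it was no longer called without R837 replicate 2 (2.57, adjusted p = 0.153), untreated replicate 1 (3.21, adjusted p = 0.0771) or untreated replicate 2 (3.21, adjusted p = 0.0870), or with 1 rank per gene.

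In the NF-kB and IkB family 3 of 11 members rose and none fell, around a median change of 0.46, and the 3 were IkB proteins while no NF-kB subunit gene passed the test. Beside Nfkbia these were Bcl3, a nuclear IkB protein that binds p50, which went from ranks 4109 and none to 178 and 127 (5.29 ± 0.57), and Nfkbiz, an inducible nuclear IkB, which went from 1943 and none to 291 and 59 (4.95 ± 0.93). Among ubiquitin-linked brakes on NF-kB 4 of 13 rose and none fell, with a median change of 0.00. Tnfaip3, the ubiquitin-editing enzyme A20, moved from none to ranks 227 and 765 (4.33 ± 0.63), and its partners Tnip3 and Tnip1 moved from none to 243 and 226 (5.16 ± 0.86) and from 7839 and 5120 to 569 and 870 (3.17 ± 0.62). Tnip3 carried 20 and 32 summits at 6 h and Tnip1 22 and 36. Zc3h12a, the mRNA-degrading enzyme Regnase-1, rose by 3.60 ± 0.82, and its change was 2.55 with adjusted p = 0.107 without R837 replicate 2 and 2.82 with adjusted p = 0.0741 without untreated replicate 1. N4bp1 itself, the gene removed in the other genotype, was outside both shortened lists of untreated cells, with ranks 3442 and 2699 at 6 h, and had a change of 1.46 ± 0.66 that did not pass (adjusted p = 0.152).

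The list of SOCS and other feedback regulators held the largest rise and the largest fall of the comparison. Socs3 and Ier3, a stress-induced survival gene that went from ranks 2865 and 1185 to 57 and 70 (4.87 ± 0.88), were among 4 of 20 members that rose. Cd274, which encodes the checkpoint ligand PD-L1, moved from none to ranks 738 and 536 (3.74 ± 0.70) through summits shared with Plgrkt. The 4 that fell included Zfp36l2 and Zfp36l1, relatives of tristetraprolin that bind AU-rich mRNAs. Zfp36l2 (chr17:84183924-84187947) fell from ranks 4 and 9, to 2048 and 5311, a change of −9.10 ± 0.73 with adjusted p = 2.01e-05. Zfp36l1 fell from ranks 237 and 106 to none in either treated list (−5.73 ± 0.56), its summits being shared with the model gene Gm52006. Tsc22d3, the glucocorticoid-induced leucine zipper gene, fell by 3.17 ± 0.56.

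Of 41 tested pathway genes from TLRs to IKK and caspase-8, 5 rose and 3 fell, and the median change was 0.00. The rises numbered 3 without R837 replicate 1 or 2, and the falls 1 without untreated replicate 1 or R837 replicate 2. Ikbke, an IkB kinase relative that acts in interferon induction, moved from none to ranks 336 and 879 (3.95 ± 0.63) with 16 and 18 summits in the gene. The TNF receptor genes Tnfrsf1a and Tnfrsf1b rose by 2.58 ± 0.44 and 2.54 ± 0.61. Tnfrsf1b, from ranks 182 and 150 to 27 and 30, was no longer called without R837 replicate 1 (2.46, adjusted p = 0.0666) or replicate 2 (2.61, adjusted p = 0.0624). Sharpin, part of the linear ubiquitin ligase, fell from ranks 813 and 714 to none and 7746 (−3.40 ± 0.66) by a summit shared with Maf1.

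Interferon-stimulated genes rose in 13 of 35 members tested and none fell, with a median change of 1.39. The same list had 3 rises at 2 h and 20 at 4 h against the same untreated libraries, where 3.53% and 3.52% of all genes tested rose and 13.1% and 10.9% fell. Usp18, which removes ISG15 from proteins and damps interferon receptor signalling, moved from ranks 6892 and none to 209 and 228 (5.12 ± 0.71). Isg15, the ubiquitin-like modifier itself, had no summit in untreated lists and ranks 648 and 922 at 6 h (3.44 ± 0.73), and Irf7, the factor that amplifies type I interferon, moved from none to 835 and 719 (3.44 ± 0.64). Usp18, Isg15 and Irf7 thus lay in the upper part of both treated lists and at the bottom of, or outside, both untreated lists. Xaf1, Zbp1 and Oas3 rose by 3.69 ± 0.61, 3.41 ± 0.56 and 3.15 ± 0.59. The count was 10, 10, 9 and 6 without untreated replicate 1, untreated replicate 2, R837 replicate 1 and R837 replicate 2 in turn, and 8 of 32 with 1 rank per gene. Ifitm3, an interferon-induced restriction factor outside that list, had ranks none and 7477 in untreated and 75 and 99 in treated libraries, a change of 6.52 ± 0.66.

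Promoter sequences were compared for a motif of the interferon-stimulated response element type, spelled as GAAA, any 2 bases and GAAA, and searched on both strands from 250 bases before to 50 after the start site in the RefSeq promoter table of GRCm38.p6. It occurred in 9.91% of the 212 windows of genes called higher, in 2.06% of the 970 of genes called lower, in 3.24% of the 6970 of all genes tested and in 3.40% of the 17492 protein-coding genes with a window. The share of windows with a match of the NF-kB type, GGG, any 5 bases and CC, was 66.5% for rises, 67.0% for falls and 67.9% for all genes tested, so this loose pattern did not separate them. None of the patterns searched contains another. The AP-1 type TGANTCA occurred in 6.60%, 4.64% and 4.53% of the same windows, the TATA box TATAAA in 8.96%, 7.53% and 7.06%, and the STAT type TTCNNNGAA in 6.60%, 5.67% and 6.70%. A match is a description of letters and not a site. Windows of Isg15, Ifitm3 and Saa3, rises described above, are shown because this pattern occurred in a larger share of rises. Capitals mark the matches, and letters run 5′ to 3′ on the gene's strand.
Isg15, chr4:156200769-156201068, minus strand: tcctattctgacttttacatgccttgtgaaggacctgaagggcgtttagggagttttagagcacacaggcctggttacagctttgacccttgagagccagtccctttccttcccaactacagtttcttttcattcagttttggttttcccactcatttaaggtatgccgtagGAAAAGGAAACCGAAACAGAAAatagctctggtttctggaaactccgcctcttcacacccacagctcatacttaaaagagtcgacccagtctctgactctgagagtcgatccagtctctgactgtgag
Ifitm3, chr7:141010695-141010994, minus strand: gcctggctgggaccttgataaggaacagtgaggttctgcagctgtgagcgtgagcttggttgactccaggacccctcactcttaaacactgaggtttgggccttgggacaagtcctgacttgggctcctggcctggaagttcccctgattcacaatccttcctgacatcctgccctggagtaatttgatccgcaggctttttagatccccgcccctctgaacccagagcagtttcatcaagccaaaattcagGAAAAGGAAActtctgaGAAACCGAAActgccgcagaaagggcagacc
Saa3, chr7:46715627-46715926, minus strand: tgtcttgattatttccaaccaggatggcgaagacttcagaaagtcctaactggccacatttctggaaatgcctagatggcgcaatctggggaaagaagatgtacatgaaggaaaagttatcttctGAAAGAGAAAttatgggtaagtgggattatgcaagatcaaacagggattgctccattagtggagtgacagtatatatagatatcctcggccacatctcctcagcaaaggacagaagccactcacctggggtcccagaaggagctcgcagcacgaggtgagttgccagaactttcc
In Isg15 there were 3 overlapping matches that began 78, 72 and 66 bases before the start site, while Ifitm3 had 2 just after it and Saa3 had 1 that began 125 bases before it. Nfkbia, the feedback inhibitor described above, is shown with its NF-kB type matches in capitals.
Nfkbia, chr12:55492598-55492897, minus strand: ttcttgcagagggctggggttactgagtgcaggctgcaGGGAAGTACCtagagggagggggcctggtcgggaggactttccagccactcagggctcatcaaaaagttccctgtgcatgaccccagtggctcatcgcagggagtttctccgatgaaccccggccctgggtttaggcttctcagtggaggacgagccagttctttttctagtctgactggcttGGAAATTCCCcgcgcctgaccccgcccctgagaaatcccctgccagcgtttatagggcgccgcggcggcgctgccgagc
Its 2 matches, GGGAAGTACC and GGAAATTCCC, began 212 and 29 bases before the start site.

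Antimicrobial and acute-phase effectors rose in 7 of 16 members tested and none fell, with a median change of 1.34. Acod1, which makes the antibacterial metabolite itaconate, went from none to ranks 438 and 266 (4.62 ± 0.74), and Sod2, the mitochondrial superoxide dismutase, from 2057 and 5338 to 271 and 421 (3.29 ± 0.63). Ptgs2, the inducible cyclooxygenase, went from none to 1126 and 942 (3.03 ± 0.71). Acod1 and Sod2 kept their call without any one library, and Ptgs2 lost it without R837 replicate 2 (2.90, adjusted p = 0.0687). The lectin gene Clec4d, with ranks 3691 and 4116 before and 223 and 197 at 6 h, rose by 4.22 ± 1.04 and was not called without any one library, with changes from 4.13 to 4.31. The list's count of 7 was 4, 4, 3 and 3 with the 4 libraries left out in the same order, and 4 of 14 with 1 rank per gene.

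Surface genes of macrophages moved both ways, with 12 of 30 higher, 7 lower and the median at 1.13. Itgam, the CD11b subunit of the complement receptor CR3, was outside the shortened untreated lists (ranks 11824 and 11981 of the deposited lists) and had ranks 168 and 276 at 6 h, a change of 5.28 ± 0.76, with 17 and 37 summits. Fcgr1, the high-affinity IgG receptor, moved from ranks 2039 and 1268 to 259 and 97 (3.34 ± 0.60). Pirb and Msr1, an inhibitory receptor and a scavenger receptor, moved from none to ranks 496 and 922 (3.63 ± 0.53) and 749 and 803 (3.44 ± 0.68). These 4 genes had no overlap between groups, but they were named as called rises, so the lack of overlap adds no support. Both treated libraries lay above both untreated libraries at 8.59% of all genes tested. Adgre1, the F4/80 antigen, moved from ranks 248 and 1113 to 35 and 15 with 46 and 40 summits in place of 1 and 1 (4.52 ± 0.97). Its call was lost without R837 replicate 2 (3.91, adjusted p = 0.0674) and without untreated replicate 2 (3.44, adjusted p = 0.0709). Lysozyme gene Lyz2 moved from 757 and 980 to 60 and 33 (4.27 ± 0.91, and 3.84 with adjusted p = 0.0609 without R837 replicate 2), while its number of summits went from 4 and 3 to 2 and 2.

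The receptor of macrophage colony-stimulating factor, Csf1r, fell from ranks 47 and 45 to 449 and 258, a change of −2.89 ± 0.65 with adjusted p = 0.00908, while its summits numbered 6 and 5 before and 8 and 14 at 6 h. Near its gene ends alone the change was 0.94, and part of its summits count for Hmgxb3 too. Without R837 replicate 1 its change was −2.49 with adjusted p = 0.0647. Cd84, a homotypic adhesion receptor, fell from ranks 176 and 477 to none and 3812 (−4.29 ± 0.58), although within 1 kb of its start site the change was 0.57. Csf2rb, the shared receptor chain for granulocyte-macrophage colony-stimulating factor and interleukin-3, fell from 176 and 271 to 3482 and 1840 (−3.53 ± 0.62), and the cathepsin gene Ctss from 606 and 776 to 6452 and 4491 (−2.97 ± 0.62). Mertk, the receptor for apoptotic cells, with ranks 6599 and 2895 before and none at 6 h, did not pass (−0.94 ± 0.33, adjusted p = 0.0666), and neither did the adaptor Tyrobp (−1.49 ± 0.62). The counts for the whole list were 10, 7, 9 and 7 rises and 7, 7, 5 and 6 falls with the libraries left out in the order above.

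Genes of glucose use rose in 6 of 25 members and fell in 1, and the median change was 0.22. Pfkfb3, whose product makes the strongest activator of glycolysis, moved from ranks 5055 and 5268 to 67 and 232 with 14 and 32 summits in place of 1 and 2 (5.37 ± 0.69). Gapdh moved from 317 and 253 to 20 and 20 (3.82 ± 0.61), Slc2a1, the glucose transporter GLUT1, from none and 6745 to 483 and 849 (3.55 ± 0.58), and the liver-type phosphofructokinase gene Pfkl from 5328 and 6792 to 555 and 532 (3.47 ± 0.54). The best Gapdh summits at 6 h lay beyond its annotated 3′ end and count for Iffo1 too. Gapdh was not called in the gene without its 1 kb flanks or near annotated starts. All 4 kept their call without any one library, and the list's rises numbered 5 or 6. In the respiratory chain list no member of 38 rose and 3 fell, the median change being −0.43, and the falls numbered 5, 0, 0 and 0 with the libraries left out in the same order. The haem oxygenase gene Hmox1 rose from ranks 481 and 702 to 66 and 58 (3.23 ± 0.63) among the 2 rises and 1 fall of 17 genes of NRF2 and iron handling. The interleukin-4 receptor gene Il4ra moved from 3928 and 3525 to 102 and 56 (5.62 ± 0.61). It was one of 2 rises beside 2 falls in 19 cytokine receptor and JAK-STAT genes, whose median change was −0.46. Over all genes tested 3.10% rose and 14.1% fell. Actin cytoskeleton genes rose in 7 of 35 and fell in 2, with Marcks at 3.23 ± 0.69 (2.45 with adjusted p = 0.0712 without R837 replicate 2), but the rises numbered 3, 3, 3 and 0 with the libraries left out in the same order. Itgb2, the partner of Itgam, rose by 3.10 ± 0.65 among 3 rises in 12 adhesion genes and was not called without R837 replicate 2 (2.86, adjusted p = 0.051).

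**Figure D3:**
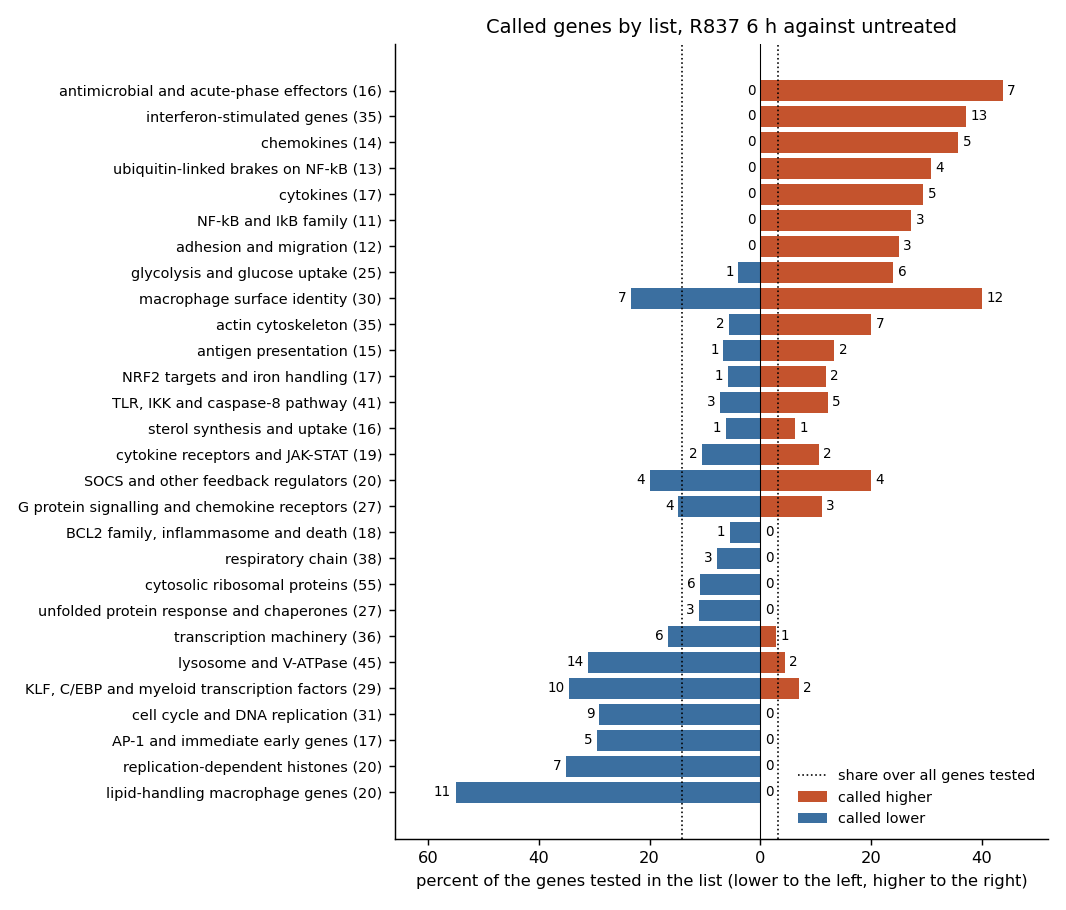
Percent of the tested genes of each list called higher (red, to the right) or lower (blue, to the left) at 6 h of R837, with the number of genes at the bar ends, the number tested in brackets and dotted lines at the shares over all genes tested (3.10% and 14.1%). Chemokine, cytokine, interferon and antimicrobial lists have rises and no falls, and the list of lipid-handling macrophage genes has 11 falls of 20 and no rise.

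The falls took in transcription factors and signalling genes that held some of the best places in untreated cells. Rgs2 (gene ID 19735, chr1:143999338-144004149), which shortens signalling by G protein-coupled receptors, had ranks 26 and 28 in untreated cells and no summit at all in the deposited 6 h lists. Its change was −8.28 ± 0.49 with adjusted p = 2.65e-06. Cxcr4, the receptor of CXCL12, went from ranks 38 and 117 to none (−6.98 ± 0.63) and Rhob, a small GTPase, from 76 and 26 to 6064 and none (−7.33 ± 0.62). They were 3 of the 4 falls among 27 G protein and chemokine receptor genes, in which 3 rose, beside 14.1% of all genes tested that fell. Without untreated replicate 2 that list had 7 falls and 1 rise. Mylip, a ubiquitin ligase for the LDL receptor and a target of the oxysterol receptor LXR, went from ranks 55 and 58 with 5 summits in each library to none (−7.22 ± 0.53). Of the 1192 genes called lower, 771 had no summit in either shortened 6 h list and 487 had none in either deposited one. Over all 8475 genes tested, 4370 and 2680 had a summit in the shortened 6 h lists of replicates 1 and 2. The 1192 falls rested on 1041 distinct best summits in untreated replicate 1, so they are not all separate results.

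KLF, C/EBP and other myeloid transcription factors fell in 10 of 29 members and rose in 2, and their median change was −0.85. Cebpa (chr7:35119293-35121928), which drives the granulocyte and monocyte lineage, had ranks 61 and 62 in untreated cells and none in either deposited 6 h list (−7.09 ± 0.57). Id3, an inhibitor of helix-loop-helix factors, fell from 28 and 14 to 571 and 1801 (−5.68 ± 0.78). Klf10 and Irf8 fell by 4.11 ± 0.70 and 3.53 ± 0.67. These 4 kept the call without any one library, although Id3 had 1 and 1 summits before and 1 and 2 at 6 h. Cebpd, the family member induced in inflammation, was one of the 2 rises, from 2862 and 1679 to 240 and 312 (adjusted p = 0.0126). It was not called without untreated replicate 1 (2.62, adjusted p = 0.0667), R837 replicate 1 (2.81, adjusted p = 0.0676) or R837 replicate 2 (3.19, adjusted p = 0.0516), and in the gene without its 1 kb flanks the change was −1.60. Falls in the list numbered 7, 9, 6 and 6 with the libraries left out in the order above, and 6 of 25 with 1 rank per gene. AP-1 and immediate early genes fell in 5 of 17 and rose in none, but the falls numbered 2, 2, 2 and 0 with the libraries left out in that order.

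Of the lipid-handling macrophage genes 11 of 20 fell and none rose, with a median change of −1.72. Trem2, the lipid-sensing receptor of tissue macrophages, went from ranks 110 and 238 to none in both treated lists (−5.70 ± 0.50). Gpnmb went from 78 and 145 to 5755 and 3670 (−5.43 ± 0.53), Apoe, the apolipoprotein that carries cholesterol out of macrophages, from 807 and 687 to none (−3.50 ± 0.46), and the cholesterol exporter gene Abcg1 from 2113 and 2240 to none (−1.95 ± 0.30). In Trem2, Apoe and Abcg1 no treated library had a summit among its 8394 best. The other exporter, Abca1, went from ranks 79 and 98 to 7356 and 3466 (−5.84 ± 0.94) while its summits numbered 3 and 1 before and 4 and 3 at 6 h. Falls numbered 8 or 9 with 1 library left out and 9 of 18 with 1 rank per gene, under which 3 members were called higher.

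Lysosomal and V-ATPase genes fell in 14 of 45 members and rose in 2, and their median change was −0.91. Ctsd, the main aspartic protease of lysosomes, and Psap, which supplies the sphingolipid activator proteins, moved in opposite ways by rank and by number of summits. Ctsd fell from rank 16 in both untreated libraries to 590 and 449 (−5.01 ± 0.53), yet its summits numbered 1 and 1 before and 5 and 10 at 6 h. Psap fell from 27 and 41 to 642 and 928 (−4.54 ± 0.56), with 3 and 4 summits before and 9 and 15 at 6 h. The lipase gene Lipa fell from 233 and 201 to none and 2181 (−4.31 ± 0.82), with fewer summits as well. Ctsc, the dipeptidase that activates serine proteases, rose from 3768 and 5372 to 86 and 426 (4.55 ± 0.90). Without R837 replicate 2 the falls numbered 7, and with 1 rank per gene there were 9 falls and 3 rises among 37 members, with a median of −0.15.

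Replication-dependent histone genes fell in 7 of 20 and rose in none, with a median of −1.61. All 20 were lower in mean, as were 6005 of the 8475 genes tested. The falls numbered 3, 6, 2 and 3 with the libraries left out in the same order. H1f2, a linker histone gene, went from ranks 100 and 73 to 2530 and 1115 (−4.30 ± 0.80), although its summits numbered 1 and 1 before and 2 and 1 at 6 h and without flanks its change was 0.49. Polr2a, the gene of the largest polymerase II subunit, ranked 2 and 3 in untreated and 18 and 25 in treated libraries (−3.11 ± 0.60), with 1 and 1 summits before and 3 and 1 at 6 h. The transcription machinery list had 6 falls and 1 rise in 36 genes, near the 14.1% and 3.10% of all genes tested. Cell cycle and replication genes fell in 9 of 31, led by Rb1 (−4.29 ± 0.46), whose summits were shared with Lpar6, and none rose. Ribosomal protein genes fell in 6 of 55, a smaller share than over all genes tested, and chaperone genes in 3 of 27, led by Hsp90aa1, which went from ranks 279 and 430 to none (−4.60 ± 0.65). The falls of the transcription machinery numbered 4, 8, 3 and 2, of the cell cycle list 11, 11, 6 and 5, and of ribosomal proteins 3, 4, 4 and 2 with the libraries left out in that order. With 1 rank per gene the cell cycle list had 2 falls among 13 members, the transcription machinery 2 among 25 with a median of −0.11, and the histones 4 among 20. Ribosomal protein genes then had 3 falls and 1 rise in 55, and their median turned from −0.39 to 0.19. Sterol genes had 1 rise and 1 fall in 16, BCL2 family and inflammasome genes 1 fall in 18, and antigen presentation genes 2 rises and 1 fall in 15, where H2-K1 fell from 279 and 90 to 1563 and 3075 (−3.79 ± 0.66).

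The promoters of falls were richer in the dinucleotide CpG than those of rises. The median window held 12.5 CpG for genes called higher, 23 for genes called lower and 21 for all genes tested, with a GC content of 57.7%, 62.3% and 61.0%. Over the 17492 protein-coding genes with a window the medians were 13 CpG and 56.3%. Rises thus lay near all protein-coding genes and falls near the genes tested. The contrast is shown with Ccl3, a large rise, and Rgs2, a large fall, whose windows held 3 and 33 CpG, in capitals here.
Ccl3, chr11:83649329-83649628, minus strand: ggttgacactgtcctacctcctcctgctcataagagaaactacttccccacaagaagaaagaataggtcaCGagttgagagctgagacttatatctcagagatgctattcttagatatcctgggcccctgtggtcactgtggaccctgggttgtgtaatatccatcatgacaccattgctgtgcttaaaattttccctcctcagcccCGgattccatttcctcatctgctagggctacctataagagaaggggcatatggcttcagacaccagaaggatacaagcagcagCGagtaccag
Rgs2, chr1:144004100-144004399, minus strand: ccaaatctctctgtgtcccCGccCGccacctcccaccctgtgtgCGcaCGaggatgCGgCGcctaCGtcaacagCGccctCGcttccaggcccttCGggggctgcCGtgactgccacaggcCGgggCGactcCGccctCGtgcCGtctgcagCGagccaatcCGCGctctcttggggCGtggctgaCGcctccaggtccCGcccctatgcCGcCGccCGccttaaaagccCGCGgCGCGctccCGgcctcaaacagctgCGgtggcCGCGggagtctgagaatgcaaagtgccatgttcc
The GC content was 48.0% in the Ccl3 and 70.0% in the Rgs2 window. Rises with CpG-rich windows also occurred, such as Socs3 with 31 CpG, and falls with poor ones, such as Myo1f with 5.

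A smaller share of the polymerase summits lay near start sites in the 6 h lists than in the untreated ones. The share of the 8394 best summits within 1 kb of either gene end was 62.0% and 64.5% in untreated and 44.6% and 33.5% in treated libraries, a difference of −24.2 percentage points. The exact permutation p of 2 against 2 libraries was 0.333, two-sided, the smallest this design allows. Within 1 kb of an annotated start the shares were 55.1%, 57.4%, 36.4% and 21.8%, and in genes but farther from both ends they were 25.9%, 24.5%, 42.4% and 53.4%. Covered genes held 1.33 summits on average in both untreated libraries and 1.91 and 3.02 in the treated ones, and genes with 5 or more summits numbered 76, 76, 251 and 362. Within lists of equal length the treated libraries thus stood apart from the untreated on each of these measures, and replicate 2 at 6 h stood farther than replicate 1. The shortened lists reached down to scores of 22.2 and 19.6 in untreated and 15.7 and 7.09 in treated libraries. In the lists as deposited, genes with 5 or more summits numbered 899 and 658 in untreated and 664 and 362 in treated libraries, so that measure did not separate them. The other measures kept their direction there, with gene-end shares of 42.8%, 48.1%, 36.9% and 33.5%.

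**Figure D4:**
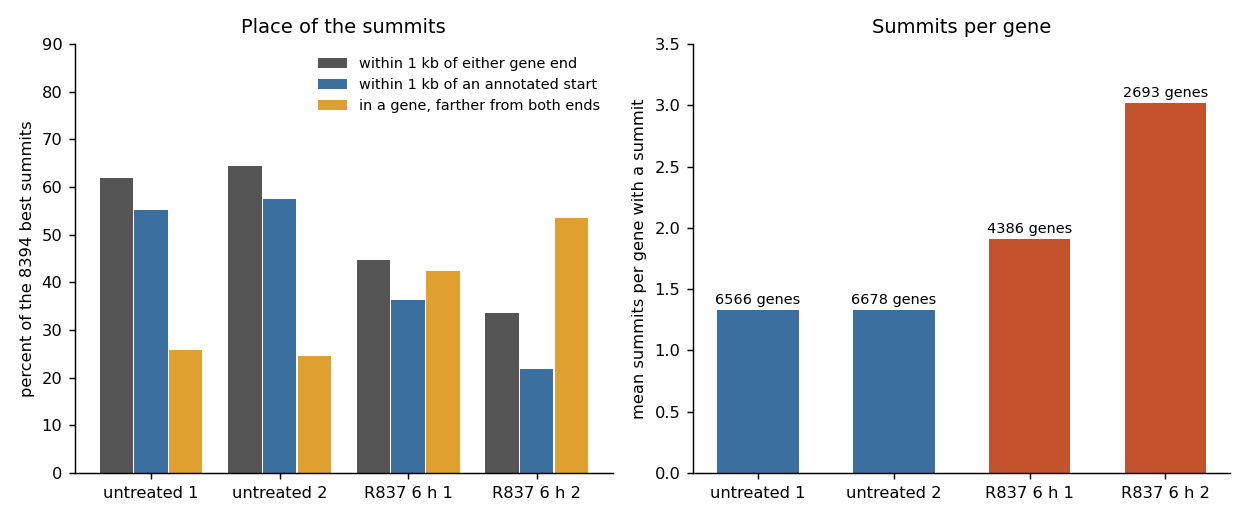
Left, percent of the 8394 best summits of each library that lay within 1 kb of either gene end, within 1 kb of an annotated start, or inside a gene farther from both ends; right, mean number of summits per gene that had one, with the number of such genes above each bar. The start-site share falls from 55.1% and 57.4% in untreated to 36.4% and 21.8% in treated libraries while summits per gene go from 1.33 to 1.91 and 3.02.

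In the 263 genes called higher, those with a summit held 1.62 and 1.57 summits on average before and 6.24 and 9.18 at 6 h. Of the 263, 95 had no summit in either shortened untreated list, 29 had none in either deposited untreated list and 114 had one in both. Among genes called higher with an annotated start, 112 and 109 had a summit before and 212 and 212 at 6 h, so the shares below are over different genes. Their best summit lay within 1 kb of the start in 66.1% and 74.3% before and in 51.4% and 46.7% at 6 h, and at the 3′ end in 8.93% and 8.26% before and 20.8% and 25.0% at 6 h. Over the 1685 genes with an annotated start and a summit in all 4 lists, the same genes in each, the start share was 79.4% and 81.0% before and 71.5% and 64.3% at 6 h. The 263 rises rested on 246 distinct best summits in replicate 1 at 6 h, and their median gene length of 18.0 kb was close to the 20.6 kb of all genes tested and the 20.1 kb of falls.

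Of the 100 best-ranked genes, 69 were shared between the untreated replicates and 65 between the treated replicates. The 4 pairs of 1 untreated and 1 treated library shared 38, 38, 31 and 32, and 23 genes were in the first 100 of all 4 libraries. The ferritin heavy chain gene Fth1, an iron store, and Actb, cytoplasmic actin, were in the first 12 places of all 4 libraries. Fth1 ranked 12 and 5 before and 2 and 1 at 6 h and Actb 8 and 6 before and 1 and 2 at 6 h, and neither change passed the test (2.45 ± 0.94 and 2.29 ± 0.88).

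The other times and the other genotype place these values in order. Of the 263 rises at 6 h, 116 were also called at 2 h and 175 at 4 h against the same untreated libraries, and 159 in N4bp1 KO cells at 6 h against their own untreated libraries, where 5.13% of genes rose and 11.1% fell. The median changes of the 263 genes were 1.85 at 2 h, 2.93 at 4 h, 3.10 at 6 h and 2.64 in the KO at 6 h. Of the 1192 falls, 853 were called at 2 h, 782 at 4 h and 495 in the KO. The WT comparisons at 2, 4 and 6 h share their untreated libraries, so these counts are not independent.

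Direct comparison of 6 h with 2 h in WT called 91 genes higher and 163 lower at 6 h, 1.07% and 1.92% of the genes tested, and of 6 h with 4 h 9 higher and 33 lower, 0.106% and 0.389%. The count against 2 h, 254 in all, was 141 and 97 without 2 h replicate 1 and 2 and 153 and 186 without 6 h replicate 1 and 2, and that against 4 h, 42 in all, was 38 to 65, the highest without 4 h replicate 1. Cxcl1 had ranks 84 and 109 after 2 h, then 4130 and 1169 after 4 h, and finally 5207 and none, a difference from 2 h of −6.11 ± 0.72. Tlr2 had ranks 92 and 66 at 2 h and 2899 and 7402 at 6 h (−5.89 ± 0.78), and Nfkbie, which encodes IkB-epsilon, 136 and 90 at 2 h and 6907 and 5980 at 6 h (−5.86 ± 0.68). All 3 ranked among the first 136 at 2 h and far lower in both libraries at 6 h, and against untreated cells none of them passed at 6 h. Others were higher at 6 h than at 2 h. Itgam had ranks 4619 and none after 2 h, then 477 and 213 after 4 h and finally 168 and 276 (4.85 ± 0.76 above 2 h), and Hmox1 had 6165 and none after 2 h, then 608 and 512 after 4 h and finally 66 and 58 (6.86 ± 0.63 above 2 h and 3.17 ± 0.63 above 4 h). The peak names of 2 h, 4 h and 6 h belong to different series as well, so batch and time cannot be told apart.

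**Figure D5:**
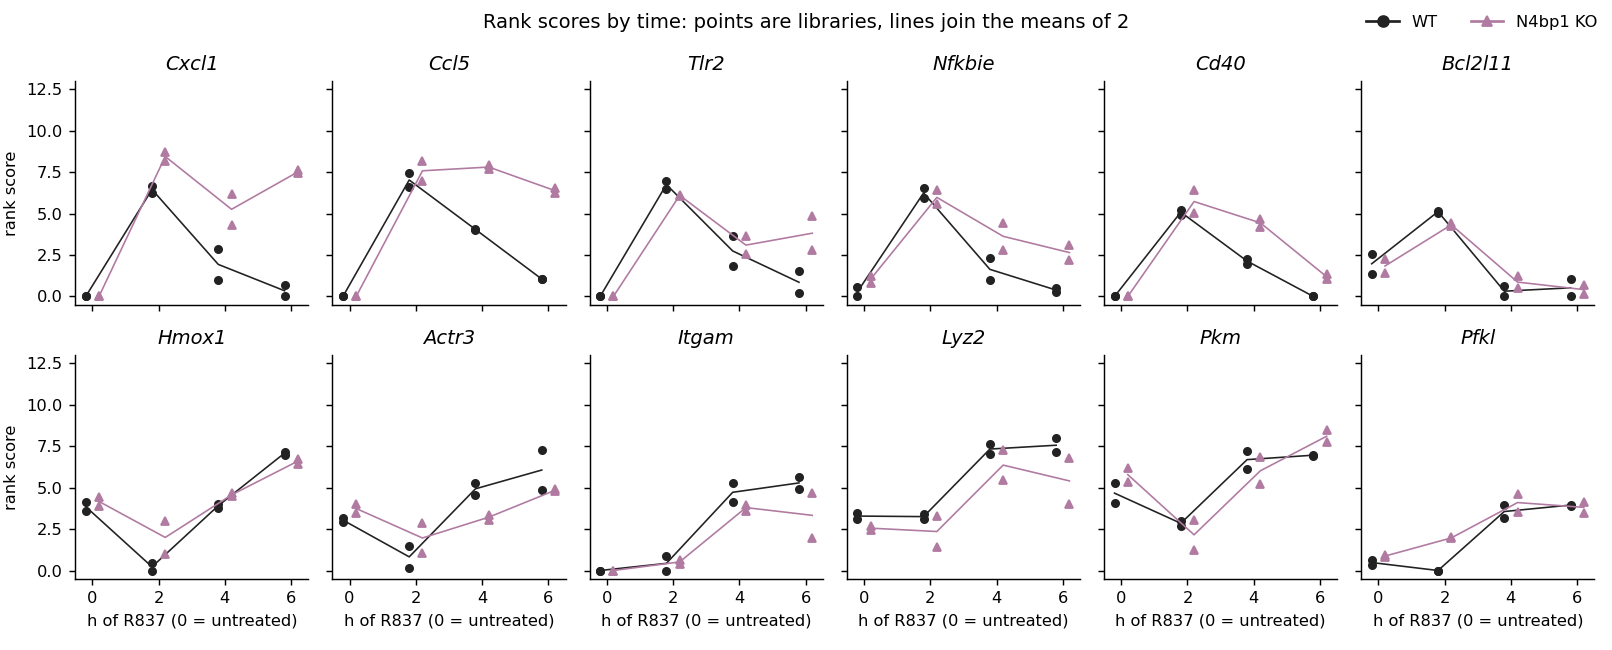
Rank score of 12 genes in every library of WT (black) and N4bp1 KO (purple) cells, untreated and at 2, 4 and 6 h of R837, with lines through the means of 2. The upper row shows genes lower at 6 h than at 2 h in WT, such as Cxcl1, and the lower row genes higher at 6 h, such as Hmox1.

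The response at 6 h was also compared between genotypes. The change from untreated to 6 h was higher in the KO than in WT at 18 genes, some of them falls in WT alone by their own tests, and lower at 4, which are 0.212% and 0.0472% of the genes tested. With 1 rank per gene no gene was called in limma, and without that change 1019 genes had an unadjusted p under 0.05. Cxcl1, with ranks 49 and 43 in the KO at 6 h against 5207 and none in WT, differed by 7.17 ± 1.02, and Ccl5, with 111 and 91 against 4109 and 3996, by 5.33 ± 0.79, each with adjusted p = 0.019. Lcn2, the siderophore-binding lipocalin, with ranks 840 and 1096 against 8159 and 6955, differed by 2.97 ± 0.43 (adjusted p = 0.019). These 3 genes had no summit in any of the 4 shortened untreated lists of both genotypes. With 1 library left out the number of genes called ranged from 15 without WT R837 replicate 1 to 430 without KO R837 replicate 1.

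Of the 140 named genes that were called, 107 kept their call without R837 replicate 1, 93 without R837 replicate 2, 112 without untreated replicate 1 and 109 without untreated replicate 2. With 1 rank per gene 113 of 138 kept it, and when the number of summits replaced the best rank 70 of 140 kept it, 50 lost it and 20 changed direction.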

How the data were processed

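RNA polymerase II chromatin immunoprecipitation libraries were read as 75 nt single ends, per the labels. The authors deposited 1 list of peak summits per library, made with GSNAP and MACS2 on GRCm38 per the submitters' processing notes, with no versions given. The score in each deposited list is a −log10 value of a p-value or q-value as MACS2 writes it, and which of the 2 it is was not settled. Only the order it gives inside a list was used. Read counts were not used here, so the depth is unknown and the number of libraries limits the precision. The input sample was not analysed here.

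Each list was shortened to 8394 summits. Of 21887 protein-coding genes (RefSeq, GRCm38.p6), the 8475 with a summit in at least 2 of 16 shortened lists were tested on the rank score by limma (version 3.58.1, R version 4.3.3), fitting the 16 libraries with 8 group means and a variance trend, with Benjamini-Hochberg adjustment over all genes tested at 0.05. Adjusted p-values and SEs in the text come from these limma fits. Changes without a library repeat the fit with that library left out. Tables and plots were made with Python 3.11.15, pandas 2.3.3 and matplotlib 3.10.9, and the fit was tested on simulated data. The genes named were the 15 largest called rises and falls whose treated and untreated libraries did not overlap, up to 4 called members of each gene list in each direction, N4bp1 and the cell type markers. Members that did not pass were named to account for a list, and genes from the comparisons with 2 h, 4 h and KO were named after their values were seen. The members, gene lists and motifs were chosen with earlier results of these data known. Results for some genes are not reported here. Alternatives covered the list length, the window around a gene, the filter, the libraries in the fit, a replicate block, 1 rank per gene and the number of summits. Those on summits near annotated starts and 1 rank per gene without each library were chosen after seeing the data.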

Additional observations from a re-analysis of the deposited data

Results flagged for a closer look

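The response of WT cells at 6 h differed from that of N4bp1 KO cells, by a test of the difference itself, at 3 genes of the lists. The KO response minus the WT response was 7.17 for Cxcl1, 5.33 for Ccl5 and 2.97 for Lcn2, each with limma adjusted p = 0.019, and with 1 rank per gene no gene was called.

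Places at 6 h and 2 h in WT differed in the same fit. Genes lower at 6 h were Icam4, whose difference was −6.36, Cxcl1 at −6.11, Ccl5 at −5.98, Tlr2 at −5.89, Nfkbie at −5.86, Icam1 at −5.11, Cd40 at −5.09 and Bcl2l11 at −4.60. Icam1, an adhesion molecule of activated cells, had ranks 22 and 18 at 2 h, the same ranks as its neighbour Icam4, and 422 and 1115 at 6 h. Cd40, a costimulatory receptor, had ranks 273 and 223 at 2 h and none at 6 h. Bcl2l11, which encodes the death protein BIM, had ranks 231 and 253 at 2 h and 4067 and none at 6 h. Genes higher at 6 h were Actb at 3.70, Usp18 at 3.70, Pfkl at 3.95, Pkm at 4.11, Lyz2 at 4.31, Itgam at 4.85, Actr3 at 5.24 and Hmox1 at 6.86. Pkm, the muscle-type pyruvate kinase, had ranks 1047 and 1298 at 2 h and 69 and 66 at 6 h.

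Against 4 h the differences were −4.45 for the chaperone gene Hsp90aa1, −4.10 for Gtf2b, −3.78 for Hcar2, −3.76 for Dnaja1, −3.42 for Nlrp3, −2.99 for Ccl5, −2.56 for Oasl1, −1.89 for Ifit3, −1.22 for Il23a and 3.17 for Hmox1. Nlrp3, the inflammasome sensor, had ranks 124 and 295 at 4 h and 2729 and 1536 at 6 h. Il23a, a cytokine subunit, had ranks 3468 and 3737 at 4 h and none at 6 h. In a fit of the 8 WT libraries alone no gene differed between 6 h and 4 h.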

How the results depend on the processing

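With 4 libraries in 2 groups and ranks in place of reads, depth could not be weighed, and a gene with no summit may lie under the authors' peak threshold. The rises numbered 156 near gene ends, 86 near annotated starts, and 0 in a fit of the 4 libraries alone, and the falls 325 with 1 rank per gene, 3721 with lists as deposited, 630 with the best 4000 summits and 0 with the 4 libraries alone. Leaving out 1 library gave 177 to 211 rises and 445 to 1354 falls, and with 1 rank per gene 166, 155, 340 and 246 rises and 419, 359, 183 and 173 falls without untreated replicate 1, untreated replicate 2, R837 replicate 1 and R837 replicate 2. The 254 differences from 2 h became 83 with lists as deposited, 520 by number of summits, 157 near gene ends, 95 with 8 WT libraries and 77 near annotated starts (97 to 186 without 1 library). The 42 from 4 h became 148 by number of summits, 25 with a summit in at least 4 lists, 0 with 8 WT libraries, 71 without a variance trend and 16 near annotated starts (38 to 65 without 1 library). The 22 differences in response between genotypes became 0 with 1 rank per gene, 78 with the best 4000, 245 by number of summits, 82 with no extension, 110 with a summit in 1 list, 4 with at least 4 lists, 121 without KO R837 replicate 2, 10 with the replicate block and 38 without a variance trend (15 to 430 without 1 library). The gene-end share difference was −10.3 with lists as deposited (−29.7 to −18.6 without 1 library), and the difference in covered genes was −5471.5 with lists as deposited and −1587.5 with the best 4000 (−3929 to −2236 without 1 library). By number of summits the sign turned for 20 named genes, among them Iffo1 (−0.21), Abca1 (0.66), Lyz2 (−0.58), Lgals3 (0.61), Ctsd (2.02), Psap (1.50), Rplp0 (0.79), Rps20 (1.20), Cdkn1a (0.74), Arpc1b (1.32), Polr2a (0.50), Csf1r (0.84), and to 0.29 for Ier5, Id3, Ifnar2, Insig1, Dnaja1, Supt16 and H1f2. With no extension it turned for Fosl2 (0.31), Cebpd (−1.60), Fzr1 (0.0084) and H1f2 (0.49), near gene ends for Cd84 (0.57), Bbc3 (0.74), Ell2 (−2.56) and Csf1r (0.94), and near annotated starts for Cd84 (0.57), Bbc3 (1.72) and Ell2 (−2.60). The cause was not tested. Same-numbered libraries did not deviate together from their group means (r = 0.0303 across 8475 genes, which are not independent). With 2 libraries per group this cannot tell whether same-numbered libraries share a mouse or culture. With the replicate block 260 genes were higher and 1122 lower.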

Other observations

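Among 1005 miRNA hairpins, 107 had a summit in at least 1 of the 4 lists, and 12 with known roles in macrophages were examined as values with no test. Mir146, whose product dampens signalling by IRAK1 and TRAF6, had no summit in untreated WT cells, ranks 2192 and 2975 after 2 h, then 3212 and 7436 after 4 h and finally 997 and 3651 after 6 h, while in KO cells it had ranks 3235 and 1730 at 2 h and none at 4 h or 6 h. Mir155, an inflammatory miRNA, had ranks 563 and 2398 after 2 h, then none and 7486 after 4 h and none in either WT library after 6 h. In KO cells Mir155 had ranks 669 and 871 at 2 h, none at 4 h and 1417 and 6072 at 6 h. Their mature 5p sequences from RefSeq are shown because they are the products of these 2 genes, with the seed, bases 2 to 8, in capitals.
miR-146a-5p: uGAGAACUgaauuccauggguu
miR-155-5p: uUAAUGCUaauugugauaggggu
Mir22hg, a host gene already ranked 663 and 1446 in untreated WT cells, ranked 84 and 128 at 6 h, while the Mir22 hairpin had no summit in any library. Mir155hg, the host gene of Mir155, ranked 2643 and 5943 in WT cells at 4 h and had none at 6 h. In KO cells at 6 h Mir155hg ranked 512 and 6072.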
